A study of Homo sapiens with 21 samples.

Results

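E-proteins and their ID inhibitors were followed as 7 genes: the E-proteins *TCF3*, *TCF4* and *TCF12*, and the inhibitors *ID1*, *ID2*, *ID3* and *ID4*. Members were all consensus open-chromatin sites to which the deposited HOMER annotation gave one of these names as the nearest gene. They numbered 97 of 367900 sites, 40 with an E-protein name (8 *TCF3*, 19 *TCF4*, 13 *TCF12*) and 57 with an ID name (3 *ID1*, 25 *ID2*, 6 *ID3*, 23 *ID4*). Of the members, 48 were intergenic, 38 intronic, 6 in the promoter class, 4 exonic and 1 at a transcription end, and they were 190 to 2749 bases long. A site takes the name of its nearest annotated start, which need not be the gene it acts on, and accessibility is not expression.

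The study silenced ARID1A and ARID1B, 2 subunits of the BAF chromatin remodelling complex, in SK-N-BE(2), a long-established line of human neuroblastoma cells, and mapped open chromatin by ATAC-seq, a method that lets the enzyme Tn5 cut accessible DNA. All cells were transduced with lentivirus and harvested after 72 h. There were 7 groups of 3 libraries, stated to be biological triplicates of this single line. Control was the non-silencing control of the study. Single shRNAs were aimed at ARID1A (shARID1A.2, shARID1A.4) or ARID1B (shARID1B.2, shARID1B.3). The combinations silenced both genes together (shARID1A/B.2.3, shARID1A/B.4.2). By their names, the first joins shARID1A.2 with shARID1B.3 and the second joins shARID1A.4 with shARID1B.2. Differences between the combinations and between the single shRNAs thus involve the same shRNAs and are not independent. How far each shRNA lowered its target is not measured by this assay, and all comparisons with Control share the same 3 Control libraries.

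E-proteins are class I basic helix-loop-helix (bHLH) factors. They form dimers with tissue-restricted class II bHLH factors, such as HAND2 or TWIST1, and these dimers bind the E-box, CANNTG. ID proteins have the helix-loop-helix but lack the basic region that touches DNA, so a dimer of an ID protein with an E-protein cannot bind the E-box. High ID levels are known from dividing and immature cells, and *ID1*, *ID2* and *ID3* are familiar targets of BMP signalling.

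The sequences below belong to the sites on which the results turn. The first 4 are the central 300 bases, on the plus strand of GRCh38, of the closed site with the largest fall after combined silencing, among those with a mean of at least 1 CPM, in *TCF4*, *TCF12*, *ID1* and *ID4*, and E-boxes are in capitals. The last pair are the 240 bases that end 11 bases before the RefSeq start (GRCh38.p14) of *ID1* and *TCF3*, read on the gene's own strand and lying within the promoter sites that opened. For *TCF3* this RefSeq start is not the annotated start, at chr19:1651289, from which the distances of its sites are counted.
TCF4 intron, chr18:55430275-55430574: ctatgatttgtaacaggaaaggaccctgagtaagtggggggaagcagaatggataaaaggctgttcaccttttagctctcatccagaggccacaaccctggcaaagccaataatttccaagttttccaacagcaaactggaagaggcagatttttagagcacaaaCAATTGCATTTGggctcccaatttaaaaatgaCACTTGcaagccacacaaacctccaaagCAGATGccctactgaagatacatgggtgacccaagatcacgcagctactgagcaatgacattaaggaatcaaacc
TCF12 intron, chr15:57098575-57098874: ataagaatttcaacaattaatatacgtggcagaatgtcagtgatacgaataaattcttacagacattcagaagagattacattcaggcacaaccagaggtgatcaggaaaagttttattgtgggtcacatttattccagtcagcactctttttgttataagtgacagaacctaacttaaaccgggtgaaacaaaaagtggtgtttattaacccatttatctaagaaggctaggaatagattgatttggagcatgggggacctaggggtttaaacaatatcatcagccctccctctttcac
ID1 upstream, chr20:31595982-31596281: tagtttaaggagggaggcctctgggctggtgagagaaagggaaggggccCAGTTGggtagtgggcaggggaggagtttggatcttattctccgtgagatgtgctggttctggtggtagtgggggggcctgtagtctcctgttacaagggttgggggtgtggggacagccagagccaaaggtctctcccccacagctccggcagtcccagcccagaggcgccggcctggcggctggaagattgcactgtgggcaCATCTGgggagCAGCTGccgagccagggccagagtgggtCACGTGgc
ID4 downstream, chr6:19858149-19858448: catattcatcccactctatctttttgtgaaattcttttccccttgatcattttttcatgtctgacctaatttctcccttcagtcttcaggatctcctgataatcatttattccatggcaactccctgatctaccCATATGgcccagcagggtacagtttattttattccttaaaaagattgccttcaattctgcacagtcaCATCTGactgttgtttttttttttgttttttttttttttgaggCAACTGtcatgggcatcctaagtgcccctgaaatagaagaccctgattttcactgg
ID1 promoter, chr20:31605039-31605278 (plus strand): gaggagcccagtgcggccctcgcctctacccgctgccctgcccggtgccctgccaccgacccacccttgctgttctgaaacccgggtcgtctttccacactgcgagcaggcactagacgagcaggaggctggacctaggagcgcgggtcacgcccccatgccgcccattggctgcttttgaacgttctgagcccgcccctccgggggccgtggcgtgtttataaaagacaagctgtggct
TCF3 promoter, chr19:1652626-1652865 (minus strand): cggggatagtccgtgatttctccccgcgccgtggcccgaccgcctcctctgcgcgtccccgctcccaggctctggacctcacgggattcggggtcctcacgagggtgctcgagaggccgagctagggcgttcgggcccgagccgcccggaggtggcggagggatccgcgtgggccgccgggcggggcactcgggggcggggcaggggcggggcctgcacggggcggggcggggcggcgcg

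The *ID1* upstream stretch held 4 E-boxes, among them CAGCTG and the palindrome CACGTG, and the *TCF4* intronic stretch also held 4. The *ID4* stretch held 3, while these letters were not found in the *TCF12* stretch or in either promoter window. CANNTG occurred in the central 300 bases of 78.4% of the 97 member sites and of 82.0% of all consensus sites, and in 60.6% of all RefSeq promoter windows of 240 bases. Both strands were searched for every motif, and the more specific E-boxes that follow are versions of the general one. Of members 21.6% held CAGCTG, against 17.6% of all sites, and the shares were for CAGGTG 14.4% and 25.2%, for CAGATG 21.6% and 22.99%, and for CACGTG 5.15% and 4.15%. The centre of a site need not be its summit, and a match of letters does not show binding.

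Values are given as CPM, the reads at a site scaled to the TMM-adjusted library total, and changes as log2 ratios to Control with their standard error (SE). A site was called closed or opened where edgeR's quasi-likelihood test gave an adjusted p (false discovery rate, FDR) under 0.01 over all 357029 tested sites. Library totals over sites ran from 16140029 to 44472230 reads. Of the 8 adrenergic neuroblastoma markers looked for, *PHOX2A*, *HAND2*, *GATA3*, *TH* and *DBH* had a site at their promoter, and among 7 markers of blood, liver, epithelium and endothelium *EPCAM* alone had one. Sites in the promoter class took 20.0 to 20.6% of the reads in Control, 20.9 to 24.1% with a single shRNA and 23.4 to 25.1% with the combinations, and the part of this shift in the promoter results below was not tested. When libraries were scaled on promoter sites alone, the median log2 change of all sites after combined silencing moved from 0.03 to -0.20, so the values below are best read against that of all sites.

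After combined silencing, averaged over both combinations, 11 of the 94 tested member sites closed and 7 opened. The background was 10.3% of all tested sites closed and 3.43% opened. The median log2 change was -0.03 over the members and 0.03 over all sites. Among E-protein sites 4 of 40 closed and 3 opened, and among ID sites 7 of 54 closed and 4 opened. The 3 members that failed the filter on low counts were *ID4* sites with 3 to 23 reads per library. Of the tested members, 39 averaged under 1 CPM, and 1 of these was called.

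Members at gene starts and away from them were counted apart. Of 8 tested members in the promoter class or within 1000 bases of the annotated start, 3 opened and 0 closed by edgeR, with 0 also lower at an unadjusted p under 0.05, and DESeq2 closed 0 as well. Of the other 86 members, 11 closed and 4 opened. With all tested sites divided by the same rule, the background was 30.9% opened and 4.12% closed at gene starts, against 1.86% and 10.6% elsewhere.

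**Figure D1:**
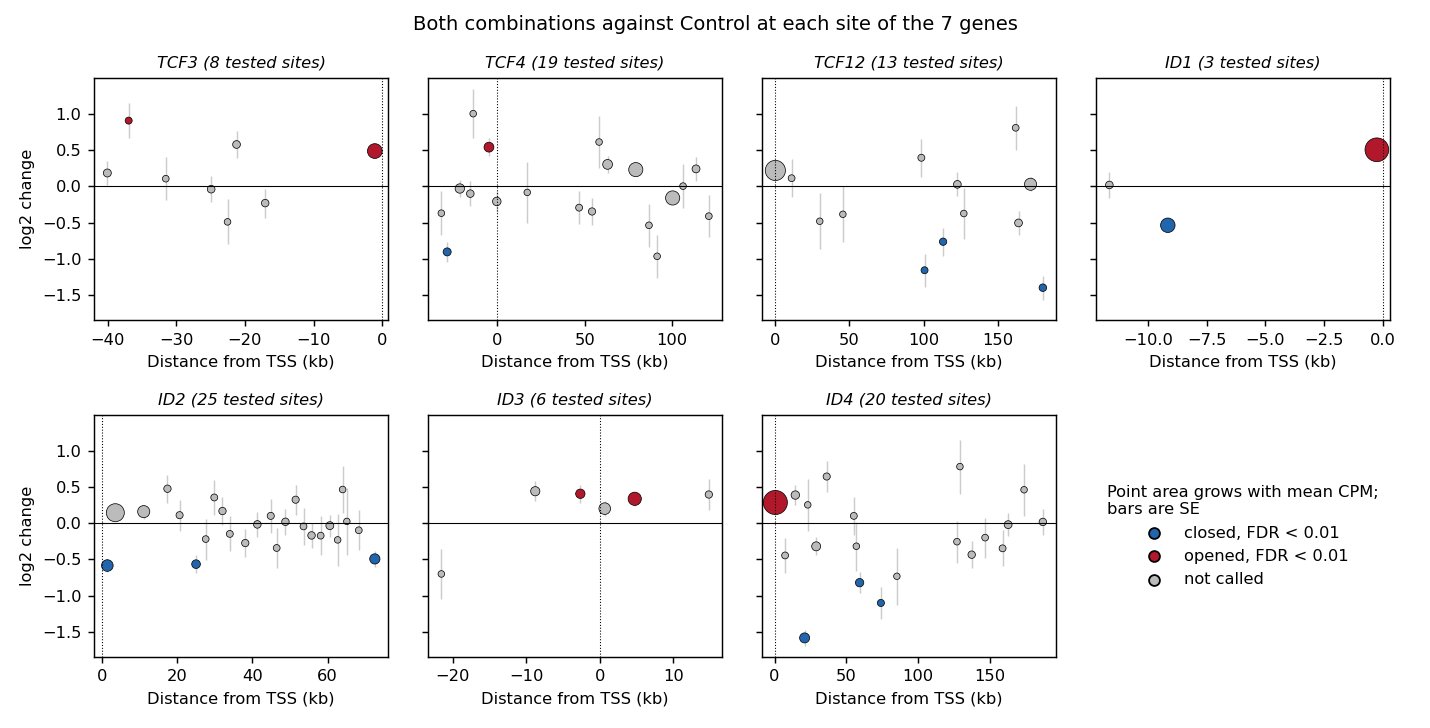
Log2 change after combined silencing (vertical axis, both combinations averaged against Control, bars SE) of each of the 94 tested member sites against its distance from the annotated start in kb, in 1 panel per gene. Point area grows with mean CPM. The 11 closed sites (blue) lie away from the start except for the intronic *ID2* site at 1444 bases. The opened sites (red) of highest mean CPM in *TCF3*, *ID1* and *ID4* lie at or near the start. The largest rise in *TCF3* is at the weak site at -36936 bases.

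*TCF3* encodes E12 and E47, the E-proteins first found on immunoglobulin enhancers. Its promoter site (-1064, chr19:1651266-1653441) was its strongest and opened. It read 15.97, 12.1 and 14.8 CPM in Control, 20.3, 16.1 and 19.9 with shARID1A/B.2.3 and 20.7, 20.5 and 23.05 with shARID1A/B.4.2. All combination libraries were above all Control libraries, narrowly so for the lowest. The log2 change was 0.49 (SE 0.10, FDR 2.88e-05), and the call was kept in all 15 alternative fits, including scaling on promoter sites (0.25).

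A weak intergenic *TCF3* site (-36936, chr19:1687923-1688528) also opened after combined silencing. Control read 0.866, 0.493 and 0.641 CPM, shARID1A/B.2.3 1.64, 1.53 and 1.19, and shARID1A/B.4.2 1.12, 0.92 and 1.07. The groups did not overlap, though narrowly so, and the averaged log2 change was 0.91 (SE 0.24, FDR 0.0022). By itself shARID1A/B.2.3 was called (1.16, FDR 0.000146) and shARID1A/B.4.2 was not (0.65, FDR 0.112). With ARID1A silencing alone the change was 0.94 (FDR 0.00315) and with ARID1B silencing 0.14 (FDR 0.842), and the difference between these passed the test (0.81, FDR 0.00124). The combined call was lost under DESeq2 (adjusted p = 0.0126), under promoter scaling, and without Control replicate 2 (0.76) or Control replicate 3 (0.88). None of the 8 *TCF3* sites closed by edgeR, and 0 were lower at an unadjusted p under 0.05 or by DESeq2.

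*TCF4* is an E-protein of the developing nervous system, and its deficiency causes Pitt-Hopkins syndrome. Its intronic site at -28734 (chr18:55429903-55430946, intron 4 of 18) closed. Control was tight at 3.56, 3.53 and 3.45 CPM, against 2.17, 1.65 and 1.67 with shARID1A/B.2.3 and 2.06, 1.52 and 2.23 with shARID1A/B.4.2. No combination library reached a Control library, and the log2 change was -0.90 (SE 0.14, FDR 2.5e-07). The site also closed with shARID1B.3 (-0.88, FDR 1.41e-05), whereas shARID1B.2 gave -0.22 (FDR 0.521), shARID1A.2 -0.43 (FDR 0.0908) and shARID1A.4 -0.11 (FDR 0.781).

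A neighbouring intronic *TCF4* site (-4830, chr18:55405582-55407458) moved the other way. Control read 4.57, 4.23 and 4.09 CPM, shARID1A/B.2.3 5.19, 6.37 and 7.17, and shARID1A/B.4.2 6.99, 5.84 and 5.98, without overlap. The log2 change was 0.54 (SE 0.12, FDR 0.000287). ARID1A silencing alone opened it by 0.72 (FDR 4.1e-06) and the ARID1B mean was 0.24 (FDR 0.263), with a difference of 0.47 (FDR 0.000136). Scaled on promoter sites, the combined change was 0.31 and no longer called.

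The *TCF4* site of highest signal (+100221, chr18:55300095-55302843, intron 8 of 19) set the combinations apart. It read 16.6, 16.5 and 16.4 CPM in Control, 12.4, 11.2 and 11.3 with shARID1A/B.2.3 and 18.1, 18.1 and 20.3 with shARID1A/B.4.2. The first combination lay below every Control library and the second above. The log2 changes were -0.51 (FDR 1.81e-05) and 0.19 (FDR 0.191), and they differed by -0.70 (SE 0.10, FDR 2.54e-08), so the averaged change of -0.16 describes neither. The ARID1B shRNAs were likewise apart, with 13.9 ± 1.07 CPM for shARID1B.3 and 18.8 ± 0.911 for shARID1B.2 (SD, n = 3), a difference of -0.43 (FDR 0.000515). By name, shARID1B.3 is part of the first combination and shARID1B.2 of the second, so these splits are not independent.

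Of the 3 *TCF4* sites in the promoter class, none was called in the averaged contrast. The one at +79134 had 14.7 ± 0.384 CPM in Control and changed by 0.23 (FDR 0.0447), which fell to -0.00 when scaled on promoter sites. Those at -343 and -21481, with 3.64 ± 0.473 and 5.04 ± 0.555 CPM in Control, changed by -0.21 (FDR 0.341) and -0.03 (FDR 0.911).

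*TCF12* encodes HEB, the third E-protein. Its intronic site at +180055 (chr15:57098100-57099348, intron 5 of 19) had the largest fall among E-protein sites. It read 3.75, 2.55 and 3.89 CPM in Control, 1.18, 0.767 and 1.41 with shARID1A/B.2.3 and 1.66, 1.56 and 1.44 with shARID1A/B.4.2, so every combination library was under every Control library. The log2 change was -1.39 (SE 0.17, FDR 3.14e-11).

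Single silencing also closed this *TCF12* site. The change was -0.93 with ARID1A silencing (FDR 7.07e-06) and -1.16 with ARID1B silencing (FDR 3.38e-08), and the combinations did not differ from the mean of the single shRNAs at the threshold (-0.35, SE 0.14, FDR 0.085). Within ARID1B, shARID1B.3 gave 0.837, 1.07 and 1.22 CPM and shARID1B.2 gave 2.37, 2.54 and 1.84. These groups did not overlap and differed by -1.12 (FDR 5.46e-05).

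The strongest *TCF12* site by far (+321, chr15:56917829-56920152) is in the promoter class, where the annotation places it at the start of *LOC145783* while giving *TCF12* as the nearest gene. Control read 34.3, 33.3 and 33.2 CPM, shARID1A/B.2.3 37.5, 29.9 and 36.5, and shARID1A/B.4.2 44.1, 41.0 and 48.0. The second combination alone stood clear of Control (0.40, FDR 0.000374), the first did not (0.04, FDR 0.809), and the difference was -0.36 (FDR 0.00287). The average, 0.22 (FDR 0.0356), was not called, became 0.30 and called without shARID1A/B.2.3 replicate 2, and was -0.02 when scaled on promoter sites.

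2 further intronic *TCF12* sites closed, at +100571 (-1.15, SE 0.23, FDR 4.01e-05) and +113034 (-0.76, SE 0.19, FDR 0.00165). At the first, Control read 1.44, 1.07 and 1.72 CPM and the combination libraries 0.325 to 0.967. The site at +113034 was called with shARID1A/B.2.3 by itself (-1.19, FDR 2.74e-05) and not with the other combination (-0.34, FDR 0.364). Its averaged call thus rests mainly on shARID1A/B.2.3, though the direct difference between the combinations was not called there. At this site, 3 of 15 alternative fits gave no call, namely DESeq2 (adjusted p = 0.0122) and those that left out Control replicate 1 (-0.71) or replicate 2 of shARID1A/B.2.3 (-0.58). No *TCF12* site opened in the averaged contrast by edgeR or DESeq2, and 2 were higher at an unadjusted p under 0.05.

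*ID1* encodes an inhibitor known as an early target of BMP signalling. Its 2 strong sites moved in opposite directions. The promoter site (-248, chr20:31604009-31606062) opened. Control read 44.7, 40.6 and 42.9 CPM, shARID1A/B.2.3 57.6, 55.8 and 57.7, and shARID1A/B.4.2 66.6, 64.0 and 62.8. The groups were well apart, with a log2 change of 0.50 (SE 0.07, FDR 1.17e-08). The call was kept in all 15 alternative fits, scaling on promoter sites included (0.27).

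The upstream *ID1* site (-9152, chr20:31595115-31597148, intergenic), whose centre is shown above with its 4 E-boxes, closed. Control read 19.9, 18.9 and 21.8 CPM, shARID1A/B.2.3 13.6, 13.4 and 13.1, and shARID1A/B.4.2 15.1, 14.5 and 14.1. There was no overlap, and the log2 change was -0.53 (SE 0.08, FDR 7.09e-08).

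Neither gene alone had a called effect on the upstream *ID1* site. ARID1A silencing gave -0.06 (SE 0.08, FDR 0.724) and ARID1B silencing -0.20 (SE 0.08, FDR 0.13), with 17.8 to 20.4 CPM over the ARID1A libraries and 16.8 to 18.4 over the ARID1B libraries. The combinations lay below the mean of the single shRNAs by -0.40 (SE 0.06, FDR 6.6e-08). At the promoter site both single silencings passed the test, with 0.32 for ARID1A (FDR 0.000689) and 0.28 for ARID1B (FDR 0.00481), and the combinations exceeded the single shRNAs by 0.21 (FDR 0.00105).

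*ID2* encodes an inhibitor that has been studied as a MYCN-linked gene in neuroblastoma. The member site closest to its start (+1444, chr2:8683289-8683566, intron 2 of 2) closed. It read 12.6, 11.8 and 12.5 CPM in Control, 8.54, 7.04 and 8.13 with shARID1A/B.2.3 and 9.27, 8.38 and 8.16 with shARID1A/B.4.2, with no overlap. The log2 change was -0.58 (SE 0.09, FDR 3.29e-07). It closed with shARID1A.2 (-0.42, FDR 0.00454) and shARID1B.3 (-0.61, FDR 6.73e-06), while shARID1A.4 (-0.13, FDR 0.557) and shARID1B.2 (-0.11, FDR 0.68) were not called.

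Just downstream, the strongest *ID2* site (+3562, chr2:8684944-8686146) was not called. Control read 29.2, 24.0 and 28.5 CPM, shARID1A/B.2.3 30.4, 27.2 and 30.03, and shARID1A/B.4.2 31.7, 29.1 and 32.3. The groups overlapped, and the change was 0.14 (SE 0.08, FDR 0.237) and -0.09 when scaled on promoter sites.

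2 more distal *ID2* sites closed, at +25026 (-0.56, SE 0.13, FDR 0.000287) and at +72556 (-0.49, SE 0.11, FDR 0.000186). The second lies in intron 22 of 29 of *KIDINS220*, as 12 of the 25 *ID2* members lie within that gene. It read 6.64, 6.49 and 7.496 CPM in Control, 4.92, 4.07 and 4.79 with shARID1A/B.2.3, 5.11, 4.69 and 5.98 with shARID1A/B.4.2, and 9.93, 8.69 and 9.75 with shARID1B.3. It was thus lower with the combinations and higher with shARID1B.3 (0.45). The ARID1A shRNAs differed at this site by -0.77, with shARID1A.2 at -0.45, and their mean was -0.07 (FDR 0.793). The site was the 1 member whose combined change departed from what both single changes add up to (-0.69). The background was 0.376% of sites departing downward and 0.14% upward. Those single changes are means over shRNAs, and the ARID1A shRNAs differed here.

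The site over the *ID2* start itself (chr2:8681390-8682427) bears the name of the neighbouring transcript *AC011747.7* and is therefore no member. It averaged 43.3 ± 1.75 CPM in Control, against 55.3 ± 3.44 for shARID1A/B.2.3 and 57.1 ± 1.25 for shARID1A/B.4.2 (SD, n = 3), and opened with a log2 change of 0.38 (FDR 3.79e-05).

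*ID3* encodes an inhibitor with known roles in lymphocytes. Its 6 sites had a median log2 change of 0.36, with 5 above 0, and 2 passed the threshold. The strongest (+4757, chr1:23554303-23555772) read 14.5, 9.12 and 12.1 CPM in Control, 14.5, 12.9 and 16.6 with shARID1A/B.2.3 and 15.6, 13.7 and 16.6 with shARID1A/B.4.2. The groups overlapped, since the first Control library fell within the range of the combinations. The change was 0.34 (SE 0.10, FDR 0.00862).

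The other called *ID3* site (-2639, chr1:23562210-23562656) changed by 0.40 (SE 0.12, FDR 0.00874), and it too overlapped. It read 4.76, 3.45 and 4.25 CPM in Control, and 4.65 to 6.004 over the combination libraries. These calls were not stable: they were lost in 7 and 6 of 15 alternative fits, including DESeq2 (adjusted p = 0.0243 and 0.018) and without Control replicate 2 (0.20 and 0.31). The intronic site nearest the start (+679) had 9.01 ± 1.72 CPM in Control and was not called (0.20, FDR 0.195, and -0.03 when scaled on promoter sites).

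*ID4* encodes the inhibitor most tied to neural progenitors. Its site at +20950 (chr6:19857251-19859346, intergenic) had the largest fall of all members. Control read 9.62, 11.01 and 10.1 CPM, shARID1A/B.2.3 3.02, 2.46 and 3.21, and shARID1A/B.4.2 3.898, 4.23 and 4.27. No combination library was above 4.27 CPM and no Control library below 9.62, and the log2 change was -1.58 (SE 0.11, FDR 1.47e-22).

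The single shRNAs split at this *ID4* site. ARID1A silencing closed it, with 4.80, 5.40 and 6.24 CPM for shARID1A.2 and 3.98, 3.19 and 3.69 for shARID1A.4 (-1.20, FDR 1.89e-15). For ARID1B, shARID1B.3 read 4.16, 4.01 and 2.90 CPM but shARID1B.2 read 14.5, 13.2 and 13.6, above every Control library. The first closed (-1.45, FDR 1.02e-16), the second gave 0.43 (FDR 0.0102), just outside the threshold, and they differed by -1.87 (SE 0.12, FDR 1.48e-22). The ARID1B mean of -0.51 therefore stands for neither shRNA.

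At the *ID4* start (+590, chr6:19836752-19839124, exon 1 of 3) the mean over the 21 libraries was the highest of any member (55.2 CPM), followed by the *ID1* promoter site (53.5 CPM), which was the higher of the pair in 3 of the 7 groups. The *ID4* site read 50.6, 50.4 and 48.1 CPM in Control, 64.1, 67.5 and 59.3 with shARID1A/B.2.3 and 56.9, 58.1 and 57.5 with shARID1A/B.4.2. Every combination library was above Control, with an averaged log2 change of 0.28 (SE 0.07, FDR 0.00169). By itself shARID1A/B.2.3 was called (0.36, FDR 0.00045) and shARID1A/B.4.2 was not (0.21, FDR 0.074). The averaged call was lost without Control replicate 3 (0.26, FDR 0.0235) and when scaled on promoter sites (0.05). shARID1B.2 read 44.4 to 47.1 CPM and was not called (-0.12, FDR 0.477).

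2 further intergenic *ID4* sites closed, at +59183 (-0.82, SE 0.14, FDR 2.12e-06) and +74000 (-1.10, SE 0.22, FDR 4.06e-05). At the first, Control read 3.66, 4.11 and 4.05 CPM, the combinations 1.75 to 2.72, and shARID1B.3 4.80, 5.06 and 4.83. At the second, Control itself was spread, with 2.65, 2.10 and 0.802 CPM, and overlapped the combinations at 0.615 to 1.39, and without Control replicate 1 its call was lost (-0.77, FDR 0.0224). Both closed with ARID1A silencing (-0.68, FDR 0.000268, and -1.20, FDR 4.69e-05) and neither was called with ARID1B silencing (0.13 and -0.45).

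**Figure D2:**
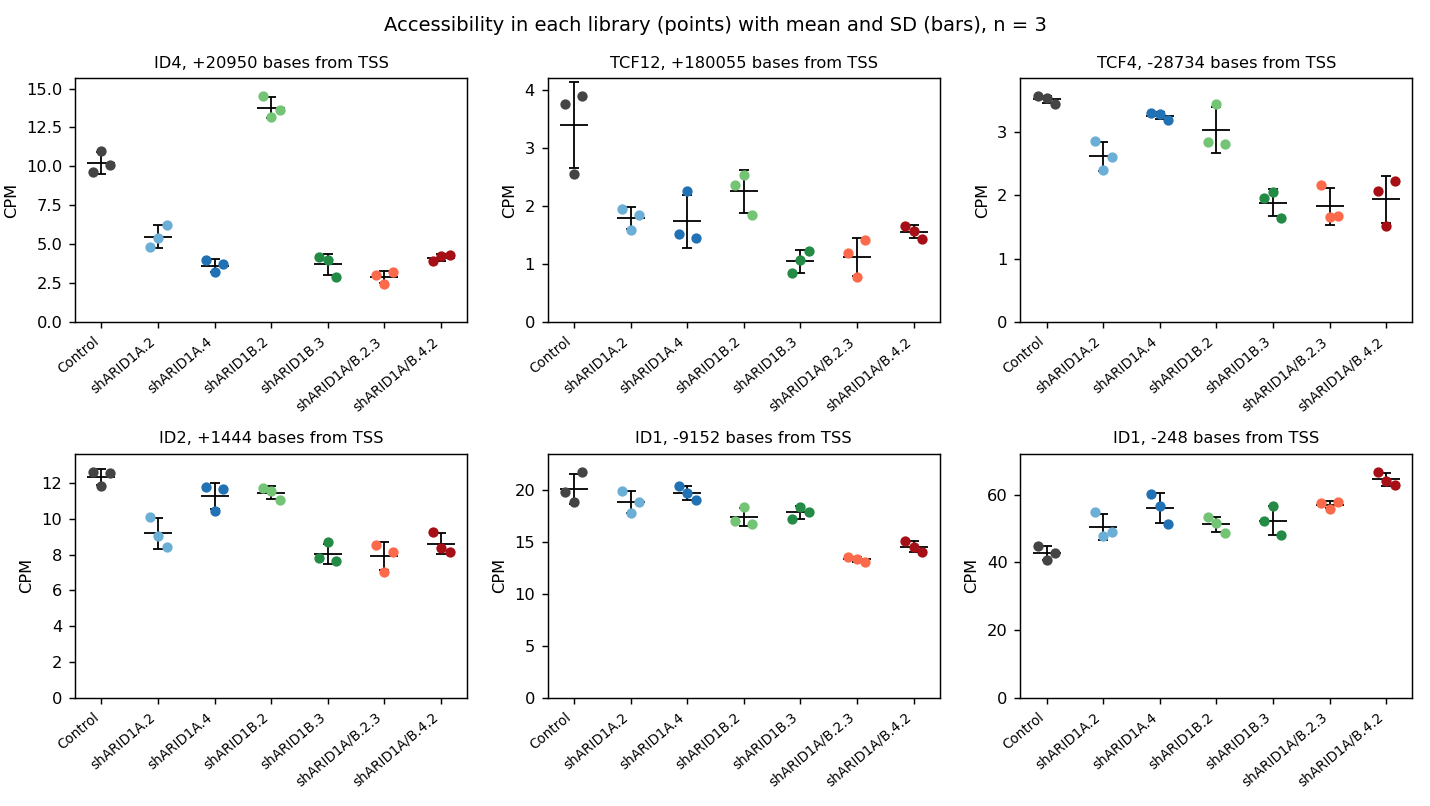
CPM in each of the 21 libraries (points, 3 per group) with group mean and SD (black bars) at 6 member sites, from a vertical axis starting at 0. At the *ID4* site shARID1B.2 (13.2 to 14.5 CPM) stands above Control while every other silenced group is at 6.24 CPM or less, and at the *ID1* upstream site the combinations (13.1 to 15.1 CPM) alone are below all other libraries.

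Across shRNAs, ARID1A silencing closed 4 and opened 3 of the 94 members (background 5.37 and 1.67%), and ARID1B silencing closed 4 and opened 3 (background 3.53 and 1.39%). Of the 11 sites closed by the combinations, 4 were also closed by ARID1A silencing, 4 by ARID1B silencing and 5 by neither. The matching shares over all sites were not computed, so these overlaps are a description only. The sites closed by ARID1A silencing were *TCF12* (+180055) and *ID4* (+20950, +59183, +74000). Those closed by the mean of the ARID1B shRNAs were *TCF4* (-28734), *TCF12* (+180055), *ID2* (+1444) and *ID4* (+20950). At these 4 sites shARID1B.3 alone was called. In the same order shARID1B.2 gave -0.22 (FDR 0.521), -0.60 (FDR 0.0377), -0.11 (FDR 0.68) and 0.43 (FDR 0.0102). The direct comparison of ARID1A with ARID1B silencing gave 6 lower and 4 higher sites (background 3.69 and 1.05%). Of the 6 sites lower with ARID1A silencing, 5 were *ID4* sites, and 3 of the 4 higher ones bore the names of *TCF3* or *TCF4*. Among these *ID4* sites was +20950, where shARID1B.2 (0.43) and shARID1B.3 (-1.45) lay on opposite sides of Control.

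The shRNAs against ARID1B differed from each other at 11 members. shARID1B.3 closed 6 and opened 4 (background 4.88 and 3.12%). shARID1B.2 closed 0 and opened 0 by edgeR (background 1.84 and 1.34%), with 5 lower and 13 higher at an unadjusted p under 0.05. Compared directly, 10 members were lower and 1 was higher with shARID1B.3 than with shARID1B.2 (background 4.25 and 2.96%). For ARID1A, shARID1A.2 closed 4 and opened 2 (background 4.54 and 0.834%), shARID1A.4 closed 4 and opened 3 (background 4.17 and 2.28%), and 2 sites differed between them, *ID2* (+72556, -0.77) and *ID4* (+20950, 0.60), against a background of 1.84% of sites lower and 0.737% higher.

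Each combination was also set against Control by itself. shARID1A/B.2.3 closed 12 and opened 6 members (background 10.4 and 2.85%), and shARID1A/B.4.2 closed 8 and opened 9 (background 7.37 and 3.97%). Called with both were 7 closed and 3 opened sites, and no site was called in opposite directions. The share of all sites called with both was not computed, and both contrasts use the same Control libraries. These joint counts are therefore a description only. The combinations differed directly at 6 members, 5 of them lower with shARID1A/B.2.3 (background 3.79% lower, 1.43% higher). All 5 were E-protein sites, 3 of them *TCF4* sites.

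**Figure D3:**
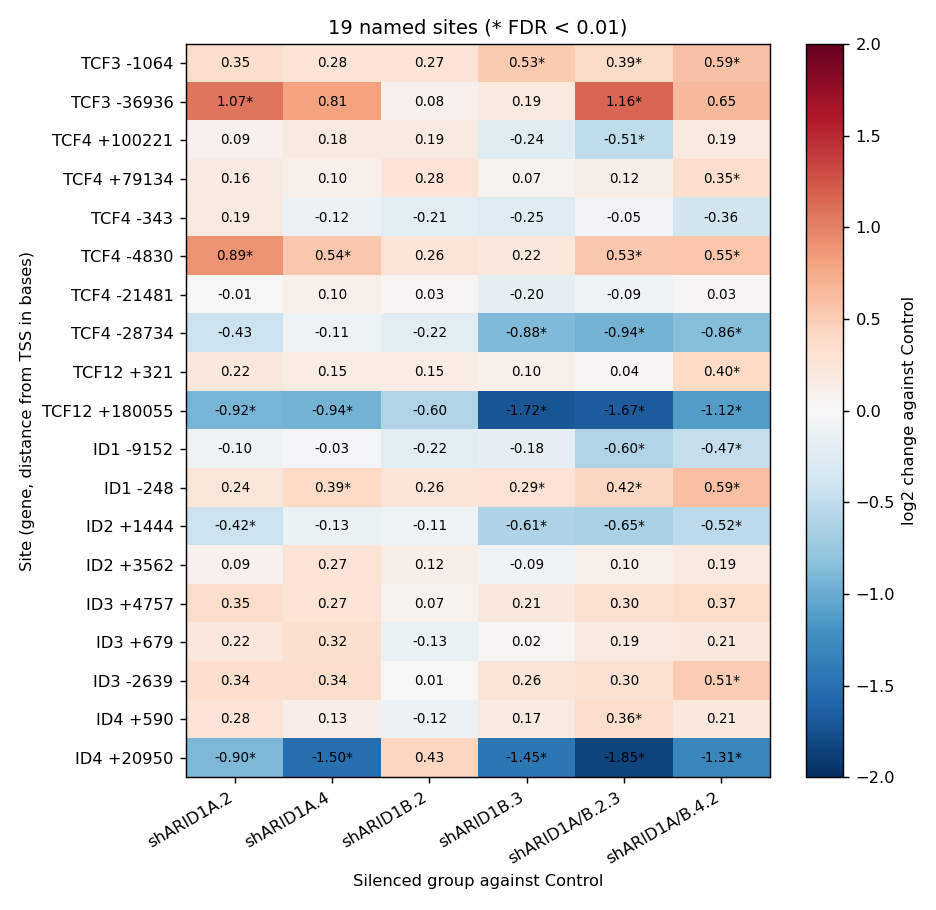
Log2 change against Control at the 19 named member sites (rows, by gene and distance from the start in bases) in the 6 silenced groups (columns), with an asterisk at FDR under 0.01. The row of the *ID4* site at +20950 runs from -1.85 with shARID1A/B.2.3 to 0.43 with shARID1B.2, and no site carries an asterisk in the shARID1B.2 column.

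Silencing both genes was then compared with the mean of the 4 single-shRNA groups. The combinations were lower at 10 members and higher at 1 (background 6.85 and 0.969%). The lower sites included *ID4* (+20950, -0.72, FDR 2.35e-10), *ID1* (-9152, -0.40), *ID2* (+72556, -0.59), *TCF12* (+100571, -0.70) and *TCF4* (-28734, -0.49), and the higher one was the *ID1* promoter. Without shARID1A/B.2.3 replicate 2, 6 members in place of 10 were lower.

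The mean of the single groups included shARID1B.2, which stood apart at several of these sites. At *ID4* (+20950) it averaged 13.8 CPM, while shARID1A.4 (3.62) and shARID1B.3 (3.69) each averaged less than shARID1A/B.4.2 (4.13). At *TCF4* (-28734) shARID1B.3 averaged 1.88 CPM, between the combinations at 1.83 and 1.94. With shARID1B.2 left out of that mean, a comparison added after seeing the data, 5 members were lower and 1 higher (4.83 and 0.594% of all sites). The *ID4* site at +20950 was then no longer called (-0.30, FDR 0.032), nor was *TCF12* (+100571), while *ID1* (-9152, -0.43), *ID2* (+72556, -0.60) and *TCF4* (-28734, -0.43, FDR 0.00586) were.

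The counts of all tested sites of each gene were also summed. After combined silencing 2 of the 7 sums were higher and 0 lower by edgeR over 26739 genes (background 16.8% higher, 16.1% lower), with 0 lower at an unadjusted p under 0.05. *TCF3* went from 23.7 ± 4.4 summed CPM in Control to 29.1 ± 3.1 and 32.5 ± 2.6 (log2 0.38, SE 0.11, FDR 0.00899), and *ID1* from 64.8 ± 3.4 to 71.9 ± 1.3 and 81.3 ± 2.4 (0.24, SE 0.05, FDR 0.00124), with shARID1A/B.2.3 given first (SD, n = 3). The *TCF3* call was lost with the compared groups alone (FDR 0.0212). Scaled on promoter sites, neither sum was higher, and those of *TCF4* (-0.20), *TCF12* (-0.19), *ID2* (-0.28) and *ID4* (-0.22) were lower, where the median of all genes was -0.16.

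Each combination was also set against Control. With shARID1A/B.4.2 the sums of *TCF3* (0.46, FDR 0.00571), *TCF4* (0.19, FDR 0.00545) and *ID1* (0.33, FDR 0.000243) were higher and 0 were lower (background 22.4% higher, 12.3% lower). With shARID1A/B.2.3 edgeR called 0 of the 7 (background 7.12% higher, 17% lower), and at an unadjusted p under 0.05 there were 3 higher and 1 lower. For *ARID1A* silencing alone the *ID1* sum was higher (0.20, FDR 0.00999) and 0 were lower (background 6.19% higher, 8.68% lower). For *ARID1B* silencing alone 0 were called by edgeR (background 4.01% higher, 5.25% lower), with 2 higher at an unadjusted p under 0.05.

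The *TCF4* and *TCF12* sums separated the combinations. Between the combinations 2 sums were lower with shARID1A/B.2.3 (background 14.6% lower, 2.24% higher). *TCF4* read 63.4 ± 1.8 summed CPM in Control, 58.2 ± 1.4 in shARID1A/B.2.3 and 72.4 ± 2.7 in shARID1A/B.4.2, a difference of -0.32 between the last pair (SE 0.05, FDR 0.000191). *TCF12* read 58.1 ± 3.3, 54.1 ± 6.1 and 66.8 ± 1.2, a difference of -0.31 (SE 0.07, FDR 0.00419). The *TCF4* sum was 57.9 ± 4.3 with shARID1B.3 and 71.0 ± 2.3 with shARID1B.2 (-0.29, FDR 0.00077), the 1 sum of 7 called between those hairpins (background 4.04% lower, 3.08% higher). The sums of *ID2* (-0.05), *ID3* (0.31, FDR 0.0182) and *ID4* (0.02) were not called, and the *ID4* sum joined an opened start and 3 closed distal sites.

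**Figure D4:**
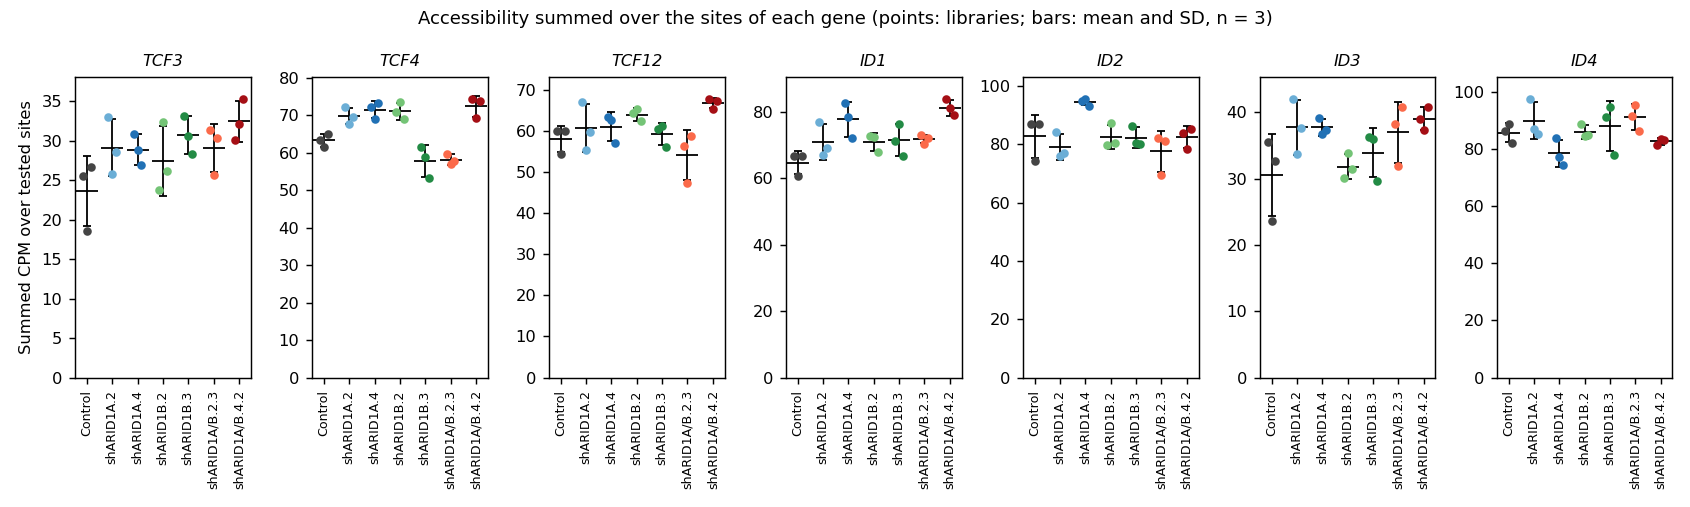
Summed CPM over the tested sites of each gene in every library (points), with group mean and SD (bars, n = 3) and the vertical axis from 0. *TCF4* is lowest with shARID1B.3 and shARID1A/B.2.3 (57.9 and 58.2 on average) and highest with shARID1A/B.4.2 (72.4), and *ID1* is highest with shARID1A/B.4.2 (81.3).

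Per kilobase of site and as means over the 21 libraries, the 8 members at gene starts read 26.0 CPM per kb for *ID1*, 23.3 for *ID4*, 16.1 for *TCF12*, 8.39 for *TCF3*, 8.17 for *TCF4* at +79134, 6.70 for *ID3* at +679, and 2.58 and 1.49 for the other *TCF4* promoter sites. In Control alone *ID1* (20.8) and *ID4* (20.9) were nearly level. The *ID2* start site that is no member stood at 41.7 CPM per kb in Control. The short *ID2* intronic site at +1444 reached 35.4 and the strong *ID2* site at +3562 24.3. *TCF3* and the *TCF4* site at +79134 differed by less than the spread between libraries of a group.

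The gene whose summed log2 CPM ran most like each member over the 21 libraries was *PRKAG1* for *TCF3* (Pearson r = 0.97), *LINC01132* for *TCF4* (0.91), *BNIP2* for *TCF12* (0.92), *OGDH* for *ID1* (0.95), *TP73-AS1* for *ID2* (0.92), *RAB7A* for *ID3* (0.94) and *PPM1K* for *ID4* (0.84). These are the highest of the 14632 or 14633 genes compared, the libraries share groups and depth, and the values are a description only.

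The class II bHLH partners of E-proteins were followed from a list of 40 genes, of which 39 had tested sites. Of their 546 sites 44 closed (8.06%) and 9 opened (1.65%), against the backgrounds of 10.3 and 3.43%, with a median log2 change of 0.04. Of these partner sites, 12 of the 29 named for *TWIST1*, a mesenchymal factor, closed. Summed per gene, among others, *TWIST1* (-0.24), *FERD3L* (-0.37) and *ATOH1* (-0.16) were lower and *ASCL2* (0.44), *ATOH7* (0.33), *HAND1* (0.16), *TCF15* (0.58) and *PTF1A* (0.22) were higher. Over all genes 16.1% of sums were lower and 16.8% higher, and the shares among partner genes did not exceed these. The genes named are therefore a description only. *HAND2*, a core adrenergic factor, had a single site with its name (0.17, FDR 0.0202).

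Sites that lie inside the E-protein genes but carry another nearest name were looked at after the member values were known. Inside *TCF12*, 23 tested sites carry the name *LINC00926*, and 10 of them closed and 0 opened by edgeR, with 0 higher at an unadjusted p under 0.05. These 43.5% closed stand against 10.6% closed and 1.86% opened among all tested sites away from gene starts. The strongest of the closed ones (chr15:57259240-57260037, intron 15 of 19) averaged 6.19 ± 0.603 CPM in Control, 2.18 ± 0.362 in shARID1A/B.2.3 cells and 2.07 ± 0.312 in shARID1A/B.4.2 cells (SD, n = 3), a log2 change of -1.55. Inside *TCF4*, 20 such sites were tested, of which 3 closed and 4 opened, including a promoter-class site (0.39). The 2 inside *TCF3* were not called.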

How the data were processed

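ATAC-seq libraries of SK-N-BE(2) cells were analysed from deposited raw read counts. Per the labels the authors aligned reads to GRCh38, and the deposited tables held for each silenced group and Control the counts of reads at 367900 consensus sites, with normalized counts and the authors' own DESeq2 fold changes and p-values, which were not used. Aligner, peak caller and any shift of reads for Tn5 offsets: not given in the sources used here. A deposited HOMER annotation (GRCh38) gave the nearest gene, the class and the distance to its start.

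Control counts did not differ between tables, and columns named NSC were taken as Control because they are the only ones without a silenced gene. NSC was read as the non-silencing control of the study. Counts were tested with edgeR 4.0.16 (R 4.3.3): TMM scaling, filterByExpr (minimum count 10), a quasi-likelihood fit of all 21 libraries in 1 model of 7 groups without covariates, and Benjamini-Hochberg adjustment over the 357029 sites that passed (10871 did not). Calls were made at FDR under 0.01. Contrasts were averages of groups against Control, and the SE was derived from the test statistic. Counts were also summed per gene name and tested alike. TMM scaling cannot show a change common to most sites. p-values weigh differences of group means against the spread between the 3 libraries within groups, estimated jointly over all 7 groups. Library totals of 16140029 to 44472230 set the counting error, so weak sites have larger SE. Replicates of a group differed by more than counting noise (chi-square 1.08 to 2.47 per degree of freedom), so none was merged. Motifs and sequences came from the GRCh38 reference with pysam 0.24.0, and RefSeq promoters from a table of GRCh38.p14. The fit was tested on simulated data with known changes.

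The members and gene lists were chosen with earlier results of these data known. Named for each gene were every promoter-class site (or the site nearest the start), the site of highest mean CPM, and the called sites of largest fall and rise with a mean of at least 1 CPM. Other called members were named after their values were seen. The value of a single gene in the list of E-protein partners is not reported here. Genes most like a member were those of highest Pearson r over 21 libraries on log2(summed CPM + 1), among genes with at least 5 tested sites. Alternatives were a replicate block, other scaling, DESeq2 1.42.0, no filter, the compared groups alone, other thresholds and leaving out each library.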

Additional observations from a re-analysis of the deposited data

Results flagged for a closer look

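Direct tests between groups under the same contrast set several members apart, each by edgeR's quasi-likelihood test with values as differences of log2 change. With shARID1B.3 as against shARID1B.2, the *ID4* site at +20950 was lower by -1.87, *TCF12* (+180055) by -1.12, *TCF4* (-28734) by -0.66, *ID2* (+1444) by -0.50 and *TCF4* (+100221) by -0.43, and the *ID4* site at +590 was higher by 0.30. The *TCF4* sum over sites was also lower (-0.29).

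Between the combinations, shARID1A/B.2.3 was below shARID1A/B.4.2 at *TCF4* (+100221, -0.70) and *TCF12* (+321, -0.36) and in the sums of *TCF4* (-0.32) and *TCF12* (-0.31). Between the ARID1A shRNAs, the *ID4* site at +20950 was higher with shARID1A.2 than with shARID1A.4 (0.60).

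ARID1A silencing differed from ARID1B silencing at 4 named sites of the E-proteins and IDs. It was higher at *TCF3* (-36936, 0.81), *TCF4* (-4830, 0.47) and *ID3* (+679, 0.32), and lower at *ID4* (+20950, -0.69). At that *ID4* site the ARID1A shRNAs averaged 5.48 and 3.62 CPM, shARID1B.3 3.69 and shARID1B.2 13.8. The difference there thus rests on shARID1B.2. At *ID3* (+679) neither silencing was called against Control.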

How the results depend on the processing

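Alternatives were compared by counts of called members. With a log2 change of at least 1 required besides the FDR, closed and opened sites numbered 4 and 0 in the averaged combined contrast, 6 and 1 with shARID1A/B.2.3, 4 and 0 with shARID1A/B.4.2, 2 and 0 with ARID1A silencing, 1 and 0 with ARID1B silencing and 0 and 0 for combined against single silencing, and 0 gene sums were higher. At FDR under 0.05, opened members rose to 16 in the averaged contrast, 10 with shARID1A/B.2.3, 7 with ARID1A silencing (which closed 7) and 3 for combined against single silencing. The shares of all sites at these changed thresholds were not computed, so these counts cannot be set against a background. Scaled on promoter sites, opened members numbered 2 (averaged contrast), 3 (shARID1A/B.2.3), 1 (shARID1A/B.4.2), 1 (ARID1A) and 1 (ARID1B), closed members 16 (shARID1A/B.4.2) and 9 (ARID1A), and gene sums 4 lower and 0 higher. All sites moved alike under that scaling, with 0.729, 1.1, 0.81, 0.336 and 0.588% opened in the same order and 15.1 and 9.55% closed, and 35.5% of all gene sums lower. DESeq2 opened 4 members in the averaged contrast (2.61% of all sites) and closed 2 with ARID1B silencing (2.52% of all sites). With library totals only, 2 members were higher for combined against single silencing (1.62% of all sites). With the compared groups alone 1 gene sum was higher (12.1% of all gene sums).

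Leaving out a library gave 4 to 10 opened members in the averaged contrast, 5 to 9 opened with shARID1A/B.4.2, 2 to 5 opened with ARID1A silencing, and 2 to 4 closed and 1 to 3 opened with ARID1B silencing. It gave 6 to 11 lower and 1 to 2 higher members for combined against single silencing and 1 to 3 higher gene sums. Over the same fits the share of all sites opened ran from 2.6 to 4.64% in the averaged contrast, 2.84 to 3.64% with shARID1A/B.4.2 and 0.731 to 2.58% with ARID1A silencing. With ARID1B silencing 2.54 to 3.25% closed and 0.694 to 1.6% opened, and for combined against single silencing 5.38 to 6.74% were lower and 0.6 to 1.12% higher. The lowest counts arose without Control replicate 2 or 3 for the averaged contrast (4 opened each), without shARID1A/B.4.2 replicate 3 for that combination (5 opened), and without Control replicate 1 or 2, shARID1B.2 replicate 3 or shARID1B.3 replicate 3 for sites closed by ARID1B silencing (2 each). Sites opened by ARID1B silencing numbered 1 without any of the Control libraries or without shARID1B.2 replicate 2, and ARID1A silencing opened 5 without shARID1A.2 replicate 2. The cause of these shifts was not tested.

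The replicate numbers did not pair the libraries throughout: deviations of same-numbered libraries correlated between -0.28 and 0.47, over 0.1 in 12 of 63 pairs. Differently numbered libraries ran from -0.32 to 0.26. The highest values, 0.28 to 0.47, were among replicate 2 of Control, shARID1A.2 and shARID1A/B.2.3. With the replicate number as a block, 2 members in place of 1 were higher for combined against single silencing (1.22% of all sites). The other counts stayed within 1.5 times. With shARID1B.2 left out of the single-shRNA mean, 5 members in place of 10 were lower. Of the 11 closed members in the averaged contrast 9 kept their call in all 15 alternative fits and *TCF12* (+113034) and *ID4* (+74000) did not, and of the 7 opened members 2 did. None of these 18 changed direction in those fits. Depth limits the weak sites: members under 1 CPM carry larger errors, and a call missed there is not evidence of no change.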
